A study of Caenorhabditis elegans with 2 samples.

Results

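The genes described here are 10 core cell cycle genes of Caenorhabditis elegans, 7 cyclins and 3 cyclin-dependent kinases (CDKs), chosen by name: cyb-1, cyb-2.1, cyb-2.2, cyb-3, cya-1, cye-1, cyd-1, cdk-1, cdk-2 and cdk-4. All 10 were found by symbol among 19973 nuclear protein-coding genes of the Ensembl annotation. The rule lists them by name, but the list was chosen with earlier results of these data known. Binding of MADF-3, a protein with a MADF domain, was profiled at these genes by chromatin immunoprecipitation and sequencing. The worms, strain RW12241, carried the allele st12241 on II, in which CRISPR had placed TY1, EGFP and 3xFLAG tags in the endogenous madf-3 gene, and chromatin was recovered with an antibody against GFP. The 2 biological replicates form 1 group: whole animals, starved as L1 larvae after bleaching to synchronise them and collected as young adults at 63 hours. Control libraries were not used here. Signal from different tissues of a whole animal cannot be told apart, nor can a strong peak in few cells and a weak peak in many.

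Cyclins are regulatory subunits that switch CDKs on at set points of the cell cycle and choose their substrates. Cyclin D with CDK-4 drives cells out of G1, cyclin E with CDK-2 starts DNA replication, and cyclins A and B with CDK-1 act in later phases and at entry into mitosis and meiotic divisions. In the adult worm cell division goes on mainly in the germline, and oocytes are loaded with B-type cyclin and CDK-1 for the first embryonic divisions.

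The sequences under peaks of cyb-3 and cdk-1 are printed because the first is a promoter peak and the second, farther upstream, holds a motif pair described further on. Each is 201 bases of build ce11, on the plus strand and 5′ to 3′, with the peak summit at its centre, taken from the RefSeq copy of the assembly (WBcel235). Capitals mark matches on either strand to the 4 motifs searched, which are spelled out with their results; in cyb-3 the match reads as the reverse complement of TTTGAA.
cyb-3, summit 153 bp upstream of the 5' end, chrV:15395443-15395643: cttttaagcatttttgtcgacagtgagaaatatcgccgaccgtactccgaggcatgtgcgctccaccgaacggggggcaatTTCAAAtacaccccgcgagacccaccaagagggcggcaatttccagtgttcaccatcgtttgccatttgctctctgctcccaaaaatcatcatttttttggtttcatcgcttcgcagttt
cdk-1, summit 598 bp upstream of the 5' end, chrIII:9746774-9746974: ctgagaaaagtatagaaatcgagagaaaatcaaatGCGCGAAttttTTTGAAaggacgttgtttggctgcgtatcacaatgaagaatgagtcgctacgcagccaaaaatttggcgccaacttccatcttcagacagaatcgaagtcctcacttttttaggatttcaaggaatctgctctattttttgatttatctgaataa

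MADF-3 had a promoter peak at 2 of the 10 genes, both B-type cyclins: cyb-2.2 and cyb-3. A promoter peak is a summit of the series-wide thresholded list of 2741 peaks that lies within 500 bp of the annotated 5' end of the gene, on either side. Across all 19973 protein-coding genes, 1251 had one (6.26%), so the members' 20.0% is above that share, but 1 gene more or less moves it by 10 percentage points and no test was made. Neither cyclin D, cyclin E, cyclin A nor any of the 3 kinases had one, and nor did the B-type cyclins cyb-1 and cyb-2.1. Within 5000 bp of the 5' end, a distance chosen after seeing the data, 6 members had a summit of the list, where 23.6% of all genes did. At cye-1 and cdk-1 the nearest such summit was nearer to another gene's 5' end. The nearest summit was a median of 1318.5 bp away over the members (range 153 to 29912 bp) and 16962 bp away over all genes.

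**Figure D1:**
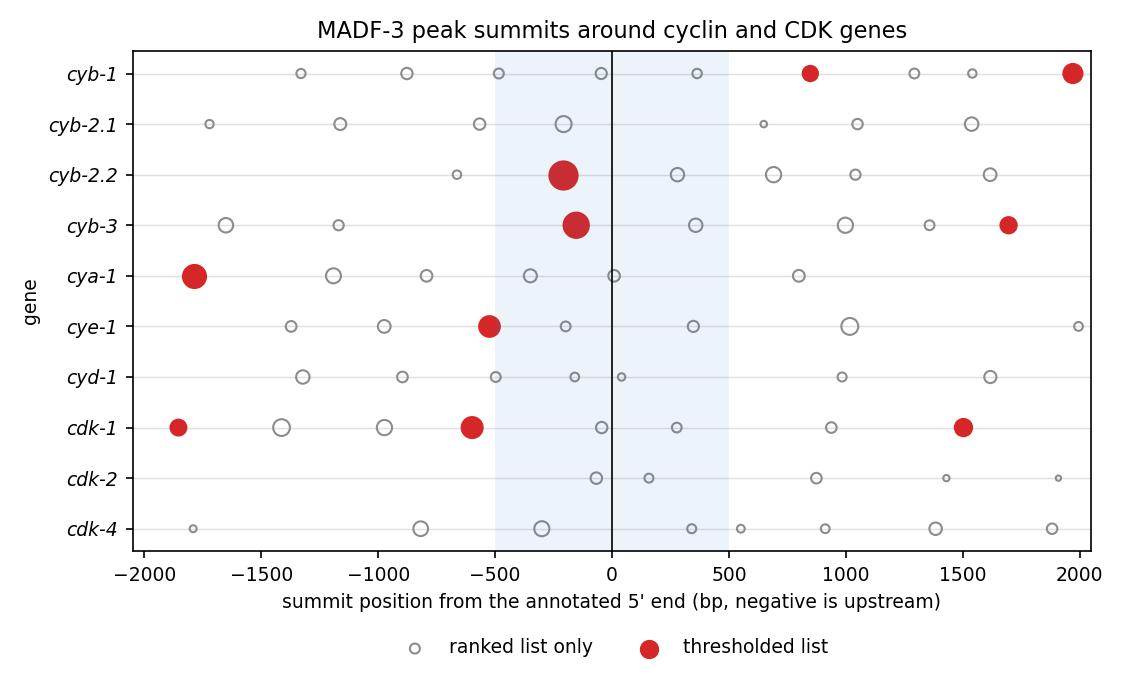
Summits within 2 kb of the 5' end of each gene, by position (bp) and with circle area proportional to the series-wide signal; filled red circles are in the thresholded list, open circles in the ranked list only, and the shaded band is 500 bp on each side. Filled circles lie in the band at cyb-2.2 and cyb-3 only, and just outside it at cye-1 and cdk-1, while open circles lie in the band at every gene, the highest of them at cyb-2.1 (59.2) and cdk-4 (52.4).

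The strongest peak at any member was that of cyb-2.2 (WBGene00000867, plus strand, I from 4114861 to 4116370), which encodes a B-type cyclin. The summit was 210 bp upstream of the 5' end, in intergenic sequence, within a 220 bp peak from 4114541 to 4114760. Its signal, the strength that the peak caller gave each peak in units whose scaling the sources used here do not give, was 87.0 in replicate 1's own ranked list and 93.9 in replicate 2's, or 90.4 ± 4.85 (SD, n = 2). The replicates lay close together, and each placed this peak in its own thresholded list. In the series-wide list the signal was 182 and the peak ranked 211 of 2741. The irreproducible discovery rate (IDR), an estimate of how likely a peak is not to keep its rank between compared sets, was 0.000113, where the list's lowest score of 830 stands for an IDR of 0.0100.

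The close paralogue cyb-2.1 (WBGene00000866, plus strand, IV from 10985985 to 10987426) had a weaker peak at nearly the same place, which was not in the thresholded list. Its summit was 207 bp upstream of the 5' end and its signal was 21.4 in replicate 1 and 36.0 in replicate 2, or 28.7 ± 10.3 (SD, n = 2). Each replicate value at cyb-2.1 was below each replicate value at cyb-2.2. The series-wide signal was 59.2, with an IDR of 0.110 in the ranked list behind the thresholded list and of 0.0270 in the ranked list that compares the replicates, both above the 0.0100 of the threshold. The nearest thresholded summit was 29912 bp away.

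The upstream sequences of the cyb-2.1 and cyb-2.2 genes are near copies. Over 500 bases before to 100 after the 5' end, 450 bases could be aligned and 435 of them (96.7%) were identical, and over the coding sequences 884 of 904 aligned bases (97.8%) were. None of the other 44 pairs of members had more than 44 aligned upstream bases. The longest identical stretch upstream was 63 bases, against at most 12 in any other pair. In this alignment the cyb-2.2 summit falls at 209 bp upstream of the cyb-2.1 5' end, beside cyb-2.1's own summit at 207 bp. Within 100 bp of the cyb-2.2 summit 192 of 200 aligned bases were identical. The GC content of 300 bases around the summit was 33.0% at cyb-2.2 and 32.3% at cyb-2.1. The sources used here do not say how reads matching both copies were placed, and the part of this in the difference of signal was not tested.

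The second promoter peak was at cyb-3 (WBGene00000868, plus strand, V from 15395696 to 15397353), which encodes the B3-type cyclin. The summit was 153 bp upstream of the 5' end, in the intergenic stretch of 735 bp between cyb-3 and the divergent gene T06E6.1, whose own 5' end was 582 bp from the summit. The signal was 57.5 in replicate 1 and 88.7 in replicate 2, or 73.1 ± 22.1 (SD, n = 2). Replicate 2 was the higher by 1.54-fold. Over the 2655 thresholded peaks met in both replicates' ranked lists that ratio had a median of 0.985, with 90% of peaks between 0.545 and 1.80. The series-wide signal was 147 and the rank 298, the IDR was 0.000202, and the peak was in each replicate's own thresholded list. A weaker thresholded peak, with a signal of 32.2 in replicate 1 and 27.7 in replicate 2, had its summit 1696 bp downstream of the cyb-3 5' end, beyond the end of the gene and in a coding exon of the neighbouring gene fbxa-199.

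Next come members with a thresholded peak just outside the window. At cye-1 (WBGene00000871, plus strand, I from 6780799 to 6784397), which encodes cyclin E, a summit lay 525 bp upstream of the 5' end. The summit was nearer to pqn-21, the divergent gene whose 5' end is 648 bp from that of cye-1, and it was 123 bp upstream of the 5' end of pqn-21. The signal was 68.2 in replicate 1 and 35.4 in replicate 2, or 51.8 ± 23.2 (SD, n = 2), and only replicate 1 had it in its own thresholded list. Within 500 bp of the cye-1 5' end neither replicate's ranked list had any summit.

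The kinase gene cdk-1 (WBGene00000405, plus strand, III from 9747472 to 9748852) encodes the catalytic partner of the A- and B-type cyclins. A summit 598 bp upstream of its 5' end had a signal of 50.6 in replicate 1 and 42.4 in replicate 2, or 46.5 ± 5.80 (SD, n = 2), and only replicate 1 had it in its own thresholded list. This summit was inside an intron of iff-1, a gene for a homologue of translation factor eIF5A, 319 bp downstream of its 5' end. The 5' ends of cdk-1 and iff-1 point away from each other and are 279 bp apart, and the stretch between them held no thresholded summit. Another thresholded summit, 1854 bp upstream in intergenic sequence, had 30.5 in replicate 1 and 33.1 in replicate 2. The summit 1503 bp downstream of the cdk-1 5' end was 41 bp inside the next gene, T05G5.4. Its signal was 33.5 in replicate 1 and 22.3 in replicate 2.

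At cyb-1 (WBGene00000865, plus strand, IV from 10735216 to 10737177), a B1-type cyclin gene, the promoter had only weak candidates. The strongest ranked peak within 500 bp of the 5' end was at 46 bp upstream with a series-wide signal of 28.4 and an IDR of 0.272. The gene orc-5, for a subunit of the origin recognition complex, starts 628 bp away on the other strand. A thresholded summit lay 848 bp inside the gene, in a coding exon. Its signal was 20.9 in replicate 1 and 30.8 in replicate 2, it ranked 2604 of 2741, and it was in neither replicate's own thresholded list. A summit just past the end of cyb-1, 287 bp upstream of grl-21, had 44.3 in replicate 1 and 37.7 in replicate 2.

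The cyclin A gene cya-1 (WBGene00000863, minus strand, III from 9106699 to 9109272) had an upstream intergenic peak rather than a promoter peak. The summit was 1789 bp upstream of the 5' end, which was still the nearest annotated protein-coding 5' end. The signal was 57.3 in replicate 1 and 62.3 in replicate 2, or 59.8 ± 3.55 (SD, n = 2), and the peak was in each replicate's own thresholded list. Both values exceeded those of any ranked peak within 500 bp of the cya-1 5' end, where the highest were 23.7 in replicate 1 and 18.7 in replicate 2. Those highest values came from different peaks that did not overlap, with summits at 21 and -214 bp in that order (negative is upstream). A second thresholded summit lay 4972 bp downstream of the cya-1 5' end, in an intron of dos-1, with a signal of 38.1 ± 15.7 (SD, n = 2) that was higher in replicate 1.

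The remaining genes, cyclin D, its kinase and the kinase of cyclin E, had no thresholded summit within 5000 bp. At cyd-1 (WBGene00000870, plus strand, II from 12980591 to 12993117), for cyclin D, the strongest ranked peak within 500 bp had a series-wide signal of 22.4, the lowest of the members, and replicate 1's ranked list had none there, while replicate 2's had 11.9. For its kinase partner cdk-4 (WBGene00000406, minus strand, X from 13515856 to 13518911) the strongest ranked peak was 300 bp upstream with 52.4 in the series-wide list, 15.9 in replicate 1 and 35.3 in replicate 2. The replicates therefore differed by more than 2-fold at cdk-4. The IDR was 0.0956 in the ranked list behind the thresholded list and 0.138 in the ranked list that compares the replicates. At cdk-2 (WBGene00019362, plus strand, I from 3410013 to 3416368), the partner of cyclin E, the values were 30.4 in the series-wide list, 18.9 in replicate 1 and 17.2 in replicate 2. Their summits differed, at -67, -139 and 65 bp from the 5' end in that order (negative is upstream), and the replicates' peaks did not overlap. The nearest thresholded summit was 13516 bp from the 5' end of cyd-1, 15367 bp from that of cdk-4 and 28156 bp from that of cdk-2.

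**Figure D2:**
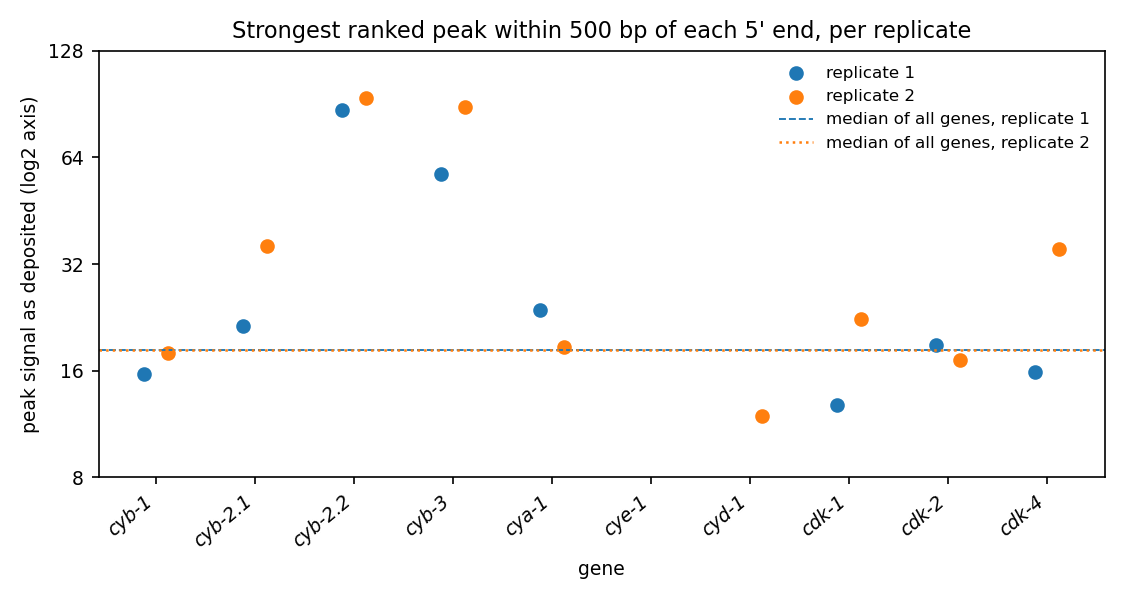
Signal of the strongest ranked peak within 500 bp of each 5' end in each replicate's own ranked list (log2 axis), with dashed and dotted lines at the median over all genes with such a peak; no point is drawn where a list had no summit there. Both replicates stand well above the lines at cyb-2.2 and cyb-3, while at cdk-4, cdk-1 and cyb-2.1 replicate 2 stands far above replicate 1. At cdk-1 the points are different peaks that do not overlap, with summits at 258 bp in replicate 1 and -125 bp in replicate 2 (negative is upstream). The same holds, in that order of replicates, at cya-1 (21 and -214 bp), cyb-1 (42 and 305 bp) and cdk-2 (-139 and 65 bp).

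Set against the same measure at other genes, the members ranged from the upper tail to well below the median. A ranked summit lay within 500 bp of the 5' end at all 10 members and at 14850 of 19973 genes (74.4%), so a ranked peak by itself says little. The series-wide signal of the strongest one had a median of 34.7 over the members and of 31.4 over all genes that had one. At cyb-2.2 and cyb-3 it exceeded that of 98.7% and 98.2% of these genes. At cyb-2.1 it exceeded 90.4%, at cdk-4 86.6% and at cya-1 68.5%. The other members, cdk-2, cdk-1, cye-1, cyb-1 and cyd-1, lay below the gene median in the series-wide list, between 46.8% and 23.9%. In replicate 1's list alone cyb-2.1 exceeded 64.5% of genes and cdk-4 35.6%, while in replicate 2's they exceeded 92.4% and 91.9%, so the high places of cyb-2.1 and cdk-4 rest on replicate 2. The place of cdk-1 also depended on the replicate, at 18.7% in replicate 1 and 68.4% in replicate 2, but there the replicates' strongest peaks were different ones. Replicate 1's had a signal of 12.8, and the replicate 2 peak that overlapped it had 13.5.

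**Figure D3:**
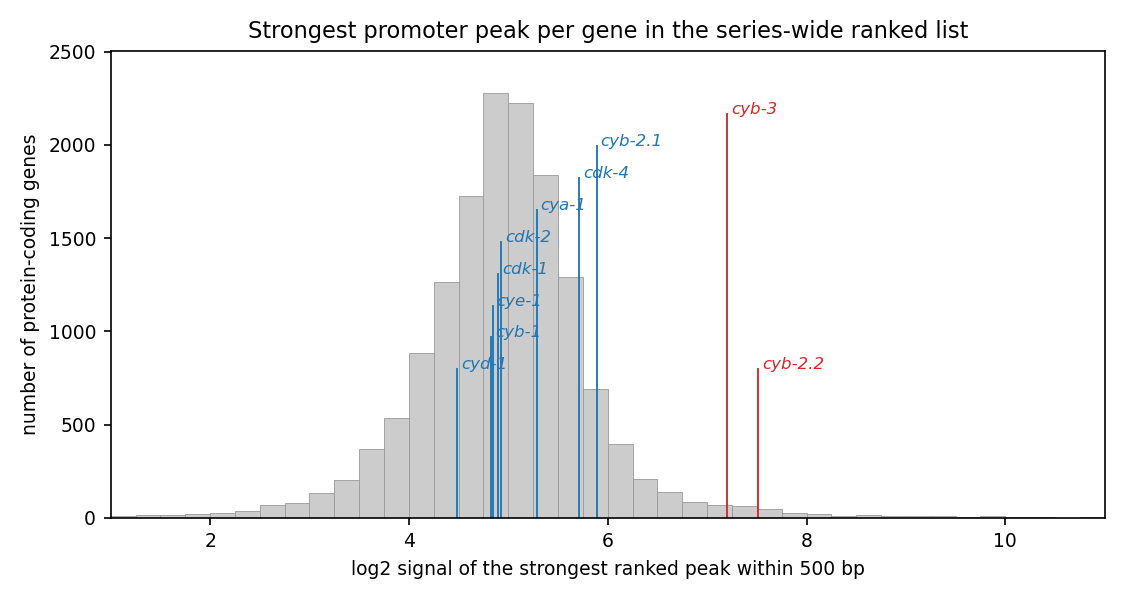
Number of protein-coding genes by the log2 series-wide signal of their strongest ranked peak within 500 bp, with lines for the 10 members (line height carries no value). The lines of cyb-3 and cyb-2.2, in red, stand farthest up the tail, followed by cyb-2.1 (59.2), just above the 90th percentile of genes (58.3), and cdk-4 (52.4).

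Among related genes, promoter peaks were at cyclins of transcription and at regulators of the cycle. Of 47 genes in 6 lists 8 had a promoter peak (17.0%, beside 6.26% of all genes). The peaks of cyl-1, an L-type cyclin linked to splicing, and cit-1.1, a T-type cyclin that partners the elongation kinase CDK-9, were stronger than any at the 10 members. The summit 169 bp upstream of cyl-1 had 232 in replicate 1 and 187 in replicate 2, and that 154 bp upstream of cit-1.1 had 202 and 173. All 4 values were above the 93.9 that was the highest at a member. These were 2 of the 8 other cyclins tested, and 0 of the 8 other CDKs had a promoter peak, although cdk-5 had one in the conservative list.

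Of the 9 CDK inhibitors, phosphatases and inhibitory kinases, 0 had a promoter peak, beside 6.26% of all genes, although the inhibitor gene cki-2 had one in the conservative list. In lists this short, as in that of the other CDKs, a count of 0 is near that share. Differences between the lists were not tested. Mitotic kinases had 2 of 5, namely plk-1, the Polo kinase, with 55.9 in replicate 1 and 65.4 in replicate 2, and bub-1, a checkpoint kinase of the kinetochore, with 21.2 and 54.8. The Rb and E2F list, genes of the repressor and the factors that regulate cell cycle transcription, had 2 of 4. Of these lin-35, the worm Rb homologue, had 67.4 in replicate 1 and 55.0 in replicate 2, and dpl-1, the DP subunit of E2F, had 30.1 and 28.5 at a summit 299 bp inside the gene. That summit, in a coding exon of dpl-1, also lay in an intron of T23G7.2. Ubiquitin ligase genes had 2 of 13. Their peaks were at cul-4, a cullin that limits DNA replication, with 85.6 in replicate 1 and 81.5 in replicate 2, and at mat-1, a subunit of the anaphase promoting complex, with 35.8 and 31.6 at a summit nearer to prp-31.

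**Figure D4:**
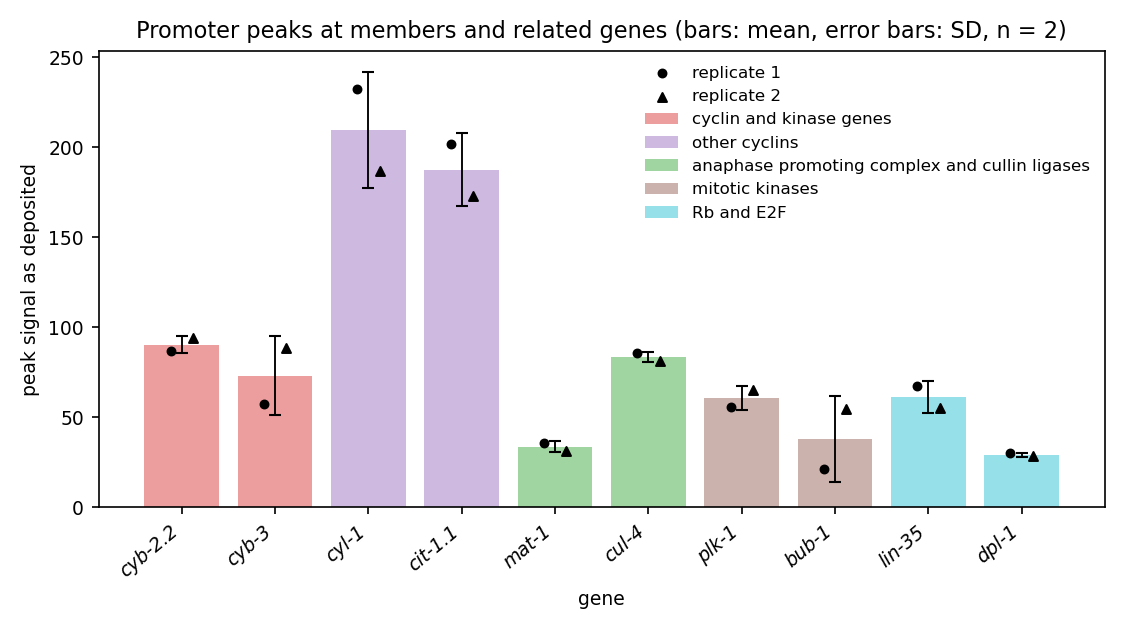
Signal in each replicate's own ranked list of the promoter peaks at 2 members and 8 related genes, as points (circle replicate 1, triangle replicate 2), mean (bar from 0) and SD (error bar, n = 2). The cyclins cyl-1 and cit-1.1 lie above all other genes, and bub-1 and cyb-3 show the widest relative gaps between replicates.

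Of 4 motifs known from cell cycle promoters, 1 was at the peak of cyb-2.2 and not at that of cyb-3, a common one found in many summit windows. The 4 motifs were the CCAAT box, the cell cycle homology region with the letters TTTGAA, and a pair of E2F-like motifs of which the first reads GCGCGAA while the second has the letters TTCCCGC. They were searched on both strands in 300 bases, and no motif contains another. CCAAT was in the 300 bases around the cyb-2.2 summit and not in those around cyb-3, and 45.2% of all 2741 summit windows held it. TTTGAA was in both, and in 45.6% of summit windows. Neither held GCGCGAA, found in 6.57% of summit windows and 1.92% of the 19973 promoters (250 bases before to 50 after the 5' end), nor TTCCCGC, found in 6.46% and 3.22%. In the promoters of the 10 members TTTGAA was present at 8 (62.5% of all promoters), CCAAT at 6 (45.5%), TTCCCGC at cyd-1 and cdk-2, and GCGCGAA at none.

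Of the peaks just outside the window, those of cye-1 and cdk-1 held the first E2F-like motif, and that in the coding exon of cyb-1 held none of the 4 motifs. In the printed cdk-1 sequence GCGCGAA stands 4 bases before TTTGAA, and of all 2741 summit windows this was the 1 window with that order and spacing, which was also in none of the 19973 promoters. The spacing was counted after the sequence had been seen, so its rarity was close to fixed by that choice and nothing is drawn from it. How many windows hold the pair at any spacing was not counted. At cye-1 the same motifs stand in the same order on 1 strand at another spacing, GCGCGAA 15 bp and TTTGAA 34 bp from the summit. As background, an E2F site followed closely by a cell cycle homology region is known from mammalian promoters that the DREAM complex represses. Whether that complex acts at the cdk-1 or cye-1 site was not tested. A match to letters is a description and does not show that a factor binds there.

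The count of 2 members did not change with the conservative list (2 of 10, beside 6.14% of all genes), the 1371 strongest peaks (2, beside 4.01%), the lists of replicate 2 (2, beside 2.85%) and replicate 1 (2, beside 3.02%), or any annotated transcript start in place of the gene start (2, beside 6.88%). The genes were cyb-2.2 and cyb-3 in each of these. With ranks of 211 and 298 both had to stay among the 1371 strongest peaks, and no other member could join, so that setting is no check. The count did change with the window. Within 200 bp only cyb-3 had a summit (1 of 10, beside 3.15%), since that of cyb-2.2 is 210 bp away. Within 1000 bp 5 members had one (beside 8.76%), as cyb-1, cye-1 and cdk-1 joined. Of these, the cyb-1 peak was not in the conservative list, and the cye-1 and cdk-1 summits were nearer to pqn-21 and iff-1.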

How the data were processed

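Peak lists of chromatin immunoprecipitation were deposited for both replicates together and for each replicate, on build ce11 per the labels. Which aligner and peak caller were used is not stated in the labels. The signal of a peak is the authors' peak strength as deposited. The score, up to 1000, and the −log10 of the IDR, capped at 5, were also deposited. Read counts are in none of these lists, so the depth is unknown and intervals were left out.

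Series-wide lists held 2741 (thresholded), 2631 (conservative), 113502 and 113670 (ranked) peaks. The thresholded lists of replicates 1 and 2 held 962 and 863, and their ranked lists 77320 and 79846. Gene starts came from Ensembl release 115 and bases from RefSeq's WBcel235. A replicate's signal is the highest among its ranked peaks that overlap a peak by at least 1 bp, or, where a 5' end is described, among those with a summit within 500 bp. Alignments were local (Biopython 1.88; match 2, mismatch -3, gap opening -5, extension -2). Work was done in Python 3.11.15 with pandas 2.3.3 and numpy 2.4.6.

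No statistical test was made: there is 1 group, and the members and lists were chosen with earlier results of these data known. Named genes are the members, the genes beside their peaks or 5' ends and each related gene with a promoter peak. Genes beside or overlapping the peaks of related genes are named too. The genes cdk-5 and cki-2, with a promoter peak in the conservative list but not in the series-wide thresholded list, were named after their values were seen. The motif pair, the alignments and the 5000 bp count were chosen after seeing the data. Alternatives were other peak lists, windows, gene starts and replicate values.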

Additional observations from a re-analysis of the deposited data

How the results depend on the processing

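Across 69 alternatives computed for 11 results, the count of members with a promoter peak changed only with the window, to 1 within 200 bp and 5 within 1000 bp. The share of all genes with a promoter peak, 6.26%, was 4.01% with the 1371 strongest peaks alone and 2.85% to 3.02% with 1 replicate's own, shorter list (863 to 962 peaks), and it was 3.15% within 200 bp. The mean signals of the cyb-2.2 and cyb-3 peaks did not change when the nearest replicate summit was taken; leaving out a replicate leaves the other's value, 87.0 to 93.9 and 57.5 to 88.7, which with 2 replicates is no check of stability. The count of 8 related genes was 4 within 200 bp, where the anaphase promoting complex and cullin list went from 2 to 0, and 12 within 1000 bp. The conservative list added cdk-5 and cki-2 and lost bub-1, and replicate 1's own list left 5 of the 8 related genes (cyl-1, cit-1.1, cul-4, plk-1 and lin-35) and replicate 2's 6. In all, 18 values moved lower and 5 higher. By design the 1371 strongest peaks and the 200 bp window can only lower a count or share or leave it equal. The 1000 bp window and the use of any transcript start can only raise a count or share or leave it equal. For the other settings the cause was not tested. With 2 replicates of 1 group, no depth and no control here, the SDs are rough and weak peaks cannot be called absent.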
